A study of Mus musculus with 6 samples.

Results

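The proteasome genes of mouse microglia were followed between 3 and 10 days after a demyelinating lesion of the corpus callosum. The 37 genes were chosen by symbol and cover the subunits of the core particle (14 genes), the regulatory cap with its assembly chaperone Psmd5 (18 genes), the activators (4 genes) and the inhibitor Psmf1. They are 37 of the 24984 genes in the count table, each matched to 1 identifier, and all 37 passed the filter on low counts that kept 10535 genes.

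Both groups were male C57BL/6J mice of 10 weeks that had received 2 µl of 1% lysolecithin (LPC), a detergent-like lipid that strips myelin, by stereotaxic injection. The lesion was taken on day 3 or day 10, and living cells were sorted as CD11b-positive, Ly6G-negative, CD3-negative and low for CD45. Each group has 3 libraries from 3 mice, made from amplified cDNA. No library from uninjured or vehicle-injected tissue was analysed here, so every change is between days after injury and none is against rest. The gate selects cells by surface level and not by lineage tracing, and in bulk RNA fewer cells of a type and less RNA per cell cannot be told apart.

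The proteasome is the protease that degrades proteins tagged with ubiquitin. Its barrel-shaped core, the 20S particle, has outer alpha rings that gate the entrance and inner beta rings that hold the cutting sites. The 19S cap binds the ubiquitin chain, removes it, and uses a ring of ATPases to unfold the protein and feed it into the core. Other activators, among them the interferon-inducible PA28 complex of Psme1 and Psme2, can dock in place of the cap. Interferon also induces the immunoproteasome subunits Psmb8, Psmb9 and Psmb10, which replace the standard cutting subunits and alter which peptides are made for antigen presentation. In microglia this machinery disposes of damaged proteins and supplies peptides for that presentation.

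Library totals ran from 5890081 to 9212197 counts. One library stood apart from the other 5. In LPC day 10 replicate 3, 1622 tested genes (15.4%) had no count, whereas the other libraries had 58 to 566 such genes. Its correlation with the others over log2 CPM was 0.549 to 0.619, and the others correlated with each other at 0.616 to 0.732. Its TMM scaling factor was 0.637. All 10 microglial markers, among them Tmem119, P2ry12 and Csf1r, were detected in it, and their summed level was 33076 CPM there against 8880 to 16723 CPM elsewhere. Levels are CPM, counts divided by the TMM-scaled library size, unless stated. The change of every member was fitted with and without this library, and both fits are given for several genes that rest on it.

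Counts of most proteasome genes were thin in that library, called the sparse library from here on. It held 10 counts or fewer for 21 of 37 members (56.8%), against 46.5% of all tested genes, and Psmb3 had no count (3 counts would be 0.807 CPM). It was the lowest library for 19 members (51.4%, against 41.4% of tested genes) and the highest for 7 (18.9%, against 25.6%). The 5 members with the most counts held 83.2% of the summed member level there, compared with 42.6% to 47.8% in each other library. The median member stood at a log2 CPM of 0.67 in it and at 3.68 to 4.42 in the others. The median tested gene stood at 2.27 in it and at 4.01 to 4.14 in the others. Both medians were thus lower in this library, and that of the members was lower by more. The summed member level was nevertheless the highest there, at 2440 CPM, against 926 to 1122 CPM in the other libraries. The TMM factor was 0.637 there and 0.906 to 1.46 in the other libraries. The low factor raises every CPM value and sum of that library.

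**Figure D1:**
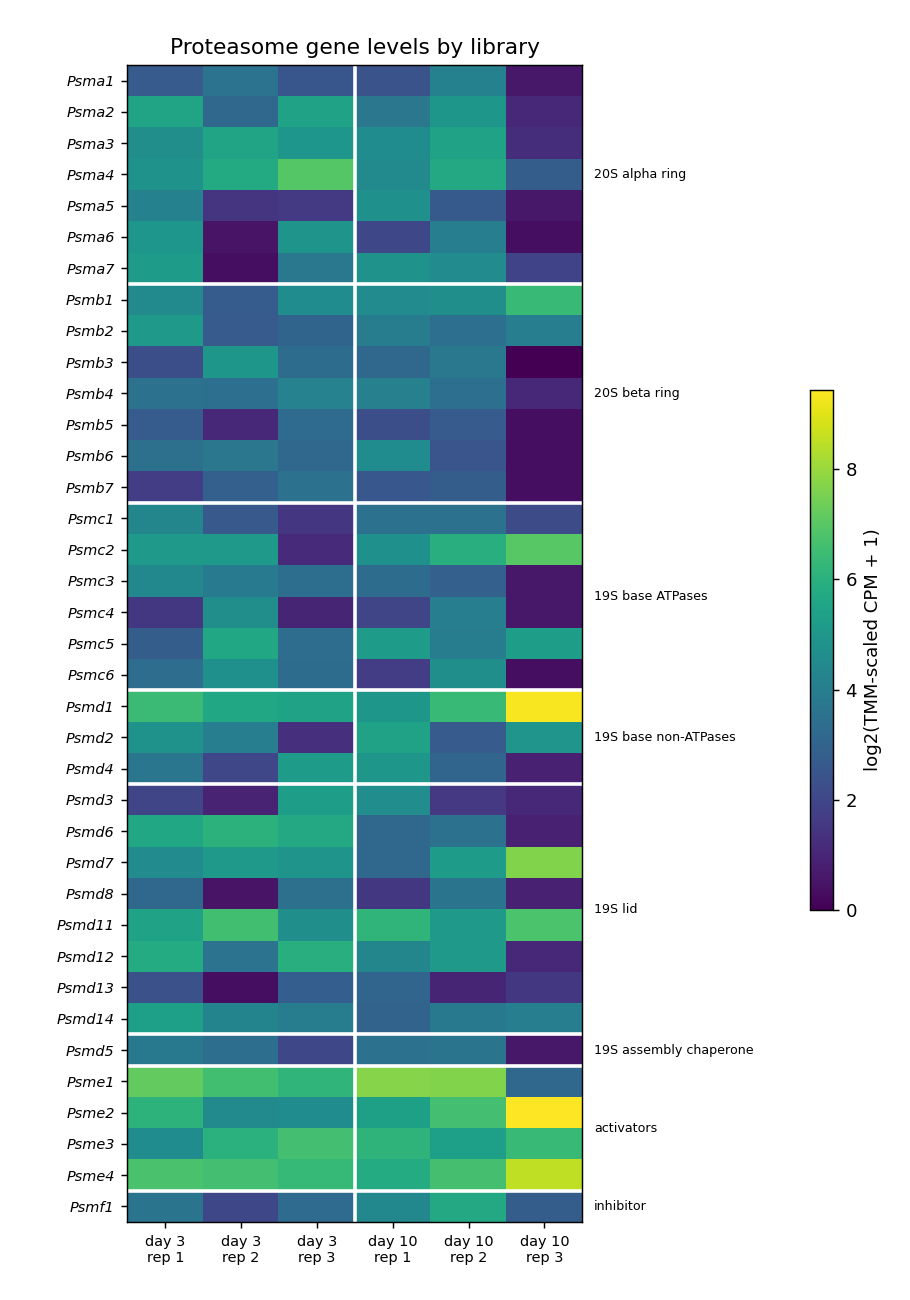
Level of each proteasome gene (rows, grouped by role) in each of the 6 libraries (columns), as log2(TMM-scaled CPM + 1) on the colour scale. LPC day 10 replicate 3 is dark for 21 members with 10 counts or fewer and bright for a few, such as Psme2 at 690 CPM.

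The heat map of levels by library shows this split: most rows go dark in the last column while Psme2, Psmd1, Psme4 and Psmd7 reach their brightest there. In that library 12 members had more than 50 counts, and they came from the beta ring, the cap and the activators, with none from the alpha ring.

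Between day 3 and day 10, no proteasome gene passed the test used. edgeR's quasi-likelihood test with Benjamini-Hochberg adjustment over all 10535 genes called 0 of 37 members, and among all tested genes it called 0.114% higher and 0% lower at day 10. The lowest adjusted p of a member was 0.396. DESeq2 also called 0 members, where it called 0.427% of tested genes higher and 0.171% lower. Before adjustment, edgeR's p lay under 0.05 for Psme2 and Psmd1 (upward) and for Psmd6 (downward), that is for 2 and 1 members, and for 4.76% of tested genes upward and 1.38% downward. Without LPC day 10 replicate 3, edgeR called 0 members of 37, against 0.00821% of 12173 tested genes higher and 0% lower. Before adjustment, 0 members then lay higher (3.42% of tested genes) and 1 lay lower, again Psmd6 (2.42%). These counts are close to the background and are not a result about the proteasome genes.

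The fitted log2 fold changes (day 10 minus day 3) leaned slightly downward, with 15 positive and 22 negative and a median of -0.20, where the median of all tested genes was -0.00 and 49.9% were positive. Without LPC day 10 replicate 3 the median member was at -0.04 (17 positive, 20 negative), and that of all tested genes was at -0.09 (46.8% positive). The error of each change was large, with a median SE of 1.56. In 2 draws of simulated counts of this comparison (9826 and 9802 genes run, 50 changed at each size), 0% of genes changed by a log2 fold of 2 were called in both. At 4 the shares were 18% and 26%, and at 6 they were 48% and 54%. Changes of the size fitted for most members were thus not called in the simulation. Changed genes lost to the filter counted there as not called. The draws did not model the sparse library apart from the others, so these shares are not the power of the real comparison.

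**Figure D2:**
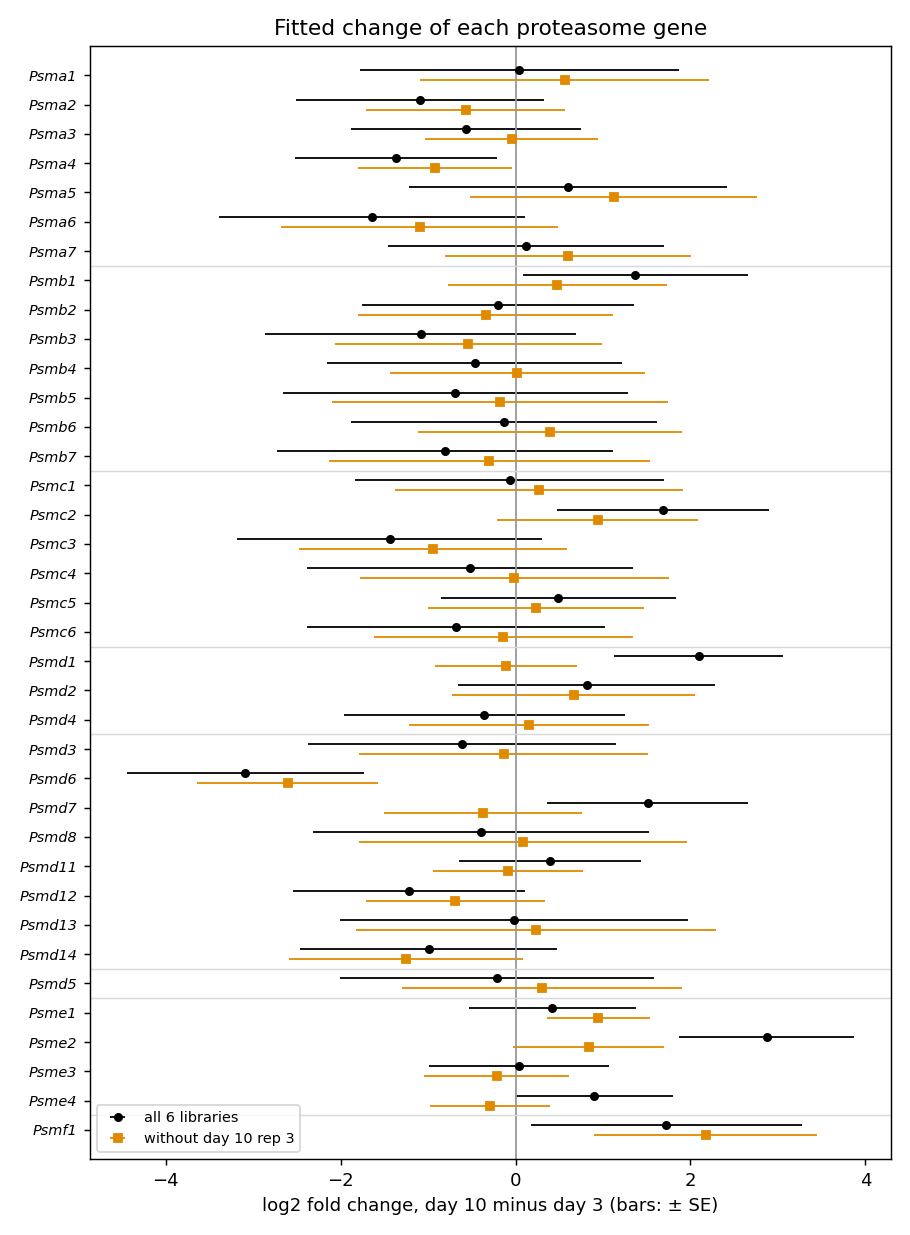
Fitted log2 fold change of each member, day 10 minus day 3, with bars of ± 1 SE, from all 6 libraries (black circles) and without LPC day 10 replicate 3 (orange squares). Psmd6 lies at -3.09 and -2.60 in the 2 fits, while Psme2 moves from 2.87 to 0.84 and Psmd1 from 2.10 to -0.10.

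The plot of fitted changes separates members that depend on the sparse library from those that do not. Psmd6 stayed far below 0 in both fits, and the upward values of Psme2, Psmd1 and Psmd7 shrank or turned when the library was left out. The bars of most other members cross 0 in both fits.

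The lid gene Psmd6 had the largest fitted change of any member. Psmd6 encodes a scaffold subunit of the lid, the part of the cap that cuts ubiquitin chains off the substrate. Its level was 49.3, 66.3 and 51.0 CPM in the 3 day 3 libraries and 7.85, 10.8 and 0.807 CPM in the 3 day 10 libraries. All 3 day 10 libraries lay below all 3 day 3 libraries, and the last value rests on 3 counts. The means were 55.6 ± 9.37 CPM at day 3 and 6.47 ± 5.12 CPM at day 10 (SD, n = 3 each).

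The log2 fold change of Psmd6 was -3.09 ± 1.36 (SE), and edgeR's adjusted p was 0.673. Without LPC day 10 replicate 3 it was -2.60 ± 1.04, with an adjusted p of 0.795. It was negative in all 18 alternative fits, from -3.68 to -2.60, and passed the threshold in none (adjusted p 0.147 to 1). In the authors' deposited table Psmd6 was the only member with a p under 0.05, at 0.00805, with 1.54% of all 24984 genes lower and 2.55% higher at day 10 at that limit. The day 10 values lay below day 3 in 3 of 3 libraries, as for 4.97% of all tested genes, and the adjusted test does not pass. The lowest of them is from the sparse library, which was lowest for 41.4% of tested genes.

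Psmd6 was also the steadiest member within groups among the 5 denser libraries, with a within-group SD of 0.263 on the log2 CPM scale, compared with 0.99 for the median member and 1.19 for the median tested gene. None of its 100-base transcript stretches occurs in another annotated gene. The gene spans chr14:14112174-14120984 on the minus strand (GRCm38), is protein-coding, and overlaps no other gene's exons. Its sequence upstream of the RefSeq start (GRCm38.p6, chr14:14120985-14121195, minus strand, 250 to 40 bases before the start) is shown because it is the member whose groups lay farthest apart. It is wholly in lower case, since none of the 4 motifs searched occurs in it:
Psmd6: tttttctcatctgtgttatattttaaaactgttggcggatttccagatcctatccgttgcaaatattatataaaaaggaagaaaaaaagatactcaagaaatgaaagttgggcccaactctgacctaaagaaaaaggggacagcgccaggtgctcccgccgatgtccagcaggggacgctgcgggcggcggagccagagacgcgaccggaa

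The other lid genes did not share the pattern of Psmd6 in all libraries. Psmd14 and Psmd7 are given by library after their values were seen. Psmd14, the metalloprotease that removes ubiquitin, stood at 39.2, 17.9 and 14.5 CPM on day 3 and at 7.12, 13.2 and 15.6 CPM on day 10, with overlapping groups (log2 fold change -0.99 ± 1.47). Its partner subunit Psmd7 was at 22.7, 33.3 and 28.5 CPM on day 3 and at 7.85, 36.3 and 197 CPM on day 10. Psmd7 was high in the sparse library and overlapped day 3 in the other day 10 libraries.

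Psmd13, a structural lid subunit, had the smallest change of the lid, -0.02 ± 1.99, from low levels of 0.285 to 6.03 CPM on day 3 and 0.969 to 7.43 CPM on day 10. Its sign turned in 13 of the 18 alternatives. The other structural subunits Psmd3, Psmd8, Psmd11 and Psmd12 had fitted changes between -1.22 and 0.39. Summed over all 8 lid genes, the level was 224, 225 and 232 CPM on day 3 and 147, 142 and 326 CPM on day 10. The sum was similar in the day 3 libraries although single lid genes were not, as Psmd3 ran from 0.854 to 37.8 CPM and Psmd12 from 11.1 to 59.5 CPM there. Psmd6 makes up much of the lower sum in day 10 replicates 1 and 2, and the sums were not tested.

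The base of the cap contains the ATPase ring and its scaffolds. Psmc2, an ATPase, had the smallest p of that ring: it was at 32.1, 32.7 and 1.21 CPM on day 3 and at 26.0, 60.0 and 126 CPM on day 10, with overlapping groups (1.68 ± 1.21, adjusted p 0.999 by edgeR). Psmc1, the ATPase with the smallest change, was at 18.9, 5.27 and 1.81 CPM on day 3 and at 10.4, 10.9 and 3.50 CPM on day 10. Its change of -0.07 ± 1.77 changed sign in 11 of 18 alternatives.

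Psmc3, a further ATPase, was named after its values were seen, because it was the only member besides Psmd6 whose day 10 values all lay below day 3. It was at 20.3, 13.7 and 9.65 CPM on day 3 and at 9.11, 6.35 and 0.538 CPM on day 10. The log2 fold change was -1.44 ± 1.75, and -0.94 ± 1.54 without the sparse library. The lowest day 3 value and the highest day 10 value are close to each other. No overlap, lower at day 10, held for 2 of 37 members (5.41%) and for 4.97% of all tested genes. In the opposite direction it held for 0 members, against 3.47% of tested genes. Without LPC day 10 replicate 3, 3 members were lower (Psmc3, Psmd6 and Psmd14), where 7.7% of tested genes were, and 2 were higher (Psme1 and Psmf1), where 12.8% were. These shares are near or below the background.

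Among the non-ATPase scaffolds of the base, Psmd1 gave an upward value that rested on 1 library. It was at 86.2, 49.4 and 42.7 CPM on day 3 and at 30.9, 81.4 and 651 CPM on day 10. The fitted change was 2.10 ± 0.97 (edgeR adjusted p 0.733) with all libraries and -0.10 ± 0.81 without replicate 3 of day 10. Psmd4, a receptor for ubiquitin chains, was at 12.1, 2.99 and 35.7 CPM on day 3 and at 31.2, 7.53 and 0.807 CPM on day 10, and the groups overlapped. Psmd2, the other scaffold, ranged from 1.45 to 42.0 CPM over the 6 libraries. The chaperone Psmd5, which helps to assemble the base, was at 3.14 to 13.2 CPM on day 3 and 0.538 to 11.3 CPM on day 10.

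In the core, most genes of both rings had few counts in the sparse library, where the median gene was at 1.08 CPM in the alpha ring and 0.269 CPM in the beta ring. The summed alpha ring was 184, 121 and 243 CPM on day 3 and 117, 184 and 12.4 CPM on day 10. The summed beta ring was 87.5, 72.2 and 84.2 CPM on day 3 and 93.5, 73.3 and 99.8 CPM on day 10. The last beta value came mostly from Psmb1 (82.3 CPM) and Psmb2 (15.6 CPM). Outside that library both rings overlapped between the days.

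**Figure D3:**
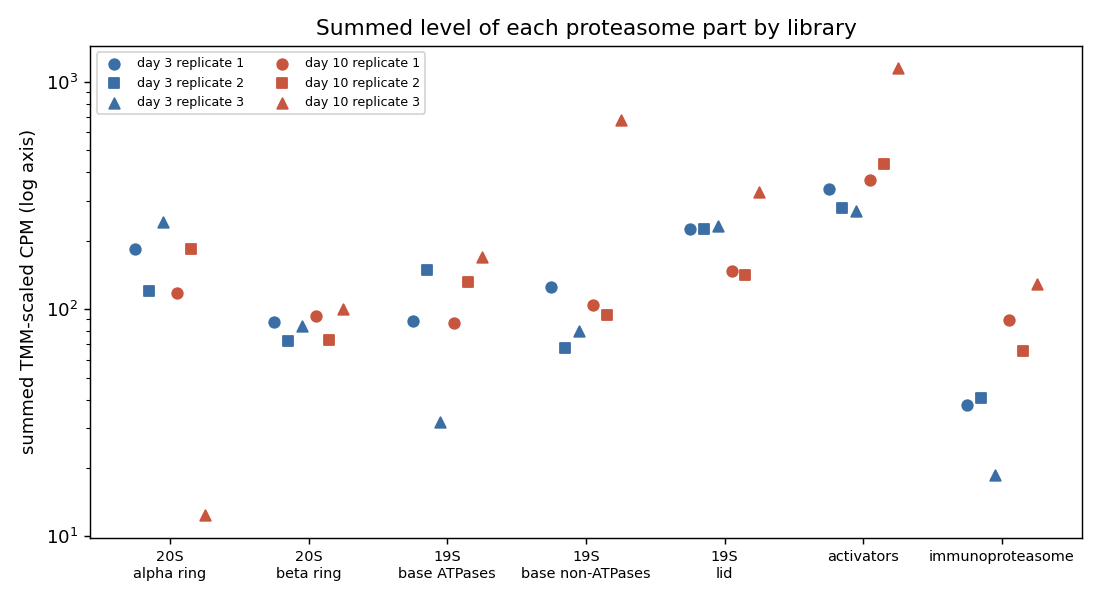
Summed TMM-scaled CPM of the members of each role in each library, day 3 and day 10. The activators are at 271 to 338 CPM on day 3 and at 371, 434 and 1146 CPM on day 10, and the alpha ring is at 12.4 CPM in LPC day 10 replicate 3.

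The plot of summed levels by role shows that the sparse library departs from the rest in both directions. Its high sums for the base non-ATPases and the activators came mostly from Psmd1, Psme2 and Psme4.

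Within the alpha ring, Psma4 had the smallest p, with 28.0, 54.1 and 122 CPM on day 3 and 22.1, 51.1 and 5.92 CPM on day 10 (-1.37 ± 1.16, edgeR adjusted p 0.999). Without the sparse library the change was -0.92 ± 0.88. The groups overlapped, although the change was negative in all 18 alternatives. Psma1, with the smallest change, was at 5.50, 10.96 and 4.70 CPM on day 3 and at 4.29, 16.9 and 0.538 CPM on day 10 (0.04 ± 1.83). The other alpha genes, Psma2, Psma3, Psma5, Psma6 and Psma7, had changes from -1.64 to 0.60. Single libraries of them could be very low, as Psma7 at 0.285 CPM and Psma6 at 0.427 CPM in day 3 replicate 2.

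The cutting subunits of the core had few counts. Psmb5, which carries the chymotrypsin-like activity, was at 5.70, 1.14 and 8.81 CPM on day 3 and at 3.77, 5.60 and 0.269 CPM on day 10. Psmb6, the caspase-like subunit, was at 10.3, 12.5 and 8.08 CPM on day 3 and at 23.2, 4.63 and 0.269 CPM on day 10. Psmb7, the trypsin-like subunit, was at 2.26, 6.40 and 10.7 CPM on day 3 and at 4.92, 5.81 and 0.269 CPM on day 10. For all 3 genes the lowest value was the single count in the sparse library, and the groups overlapped. Their fitted changes were -0.69 ± 1.97, -0.13 ± 1.75 and -0.81 ± 1.92, respectively. Without the sparse library they were -0.18 ± 1.92, 0.39 ± 1.51 and -0.30 ± 1.83.

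Of the structural beta subunits, Psmb1 had the smallest p. It was at 21.1, 5.69 and 23.2 CPM on day 3 and at 22.5, 24.8 and 82.3 CPM on day 10 (1.37 ± 1.28, and 0.48 ± 1.25 without the sparse library). Psmb2, Psmb3 and Psmb4 had changes of -0.20, -1.08 and -0.47. Transcript length must be taken into account before genes are compared with each other. In the authors' FPKM table, which corrects for it, the group medians of core genes ran on day 3 from 1.40 for Psma5 to 40.4 for Psma2, and on day 10 from 1.75 for Psmb7 to 31.3 for Psmb1. Cap genes ran from 0.664 (Psmd3) to 23.7 (Psmd6) on day 3 and from 0.352 (Psmd13) to 16.9 (Psmc5) on day 10. Psmd6 was thus the most abundant cap gene on day 3 per length and not on day 10.

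Per length, the activators had the highest middle FPKM, 17.2 on day 3 and 36.8 on day 10, against 6.10 and 5.73 for the core and 5.63 and 4.11 for the cap. Psme1 led with a median FPKM of 43.3 on day 3 and 92.6 on day 10, and Psme4 was lowest with 11.5 and 12.3. Summed, the 4 activators were at 338, 278 and 271 CPM on day 3 and at 371, 434 and 1146 CPM on day 10, which do not overlap, although each gene alone overlapped between the days. The last sum came mostly from Psme2 and Psme4, and no test was made on the sums. Psme1 encodes the alpha chain of PA28, a ring that opens the core without ATP. Its level was 142, 95.4 and 72.0 CPM on day 3 and 208, 199 and 7.80 CPM on day 10. Day 10 replicates 1 and 2 lay above every day 3 library, and the sparse library lay below them all. The change was 0.42 ± 0.96 with all libraries and 0.95 ± 0.59 without replicate 3 of day 10 (edgeR adjusted p 0.999 and 1). Its sign turned in 6 of 18 alternatives.

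Psme2, the beta chain of PA28, showed the opposite picture in that library. It was at 67.5, 22.1 and 23.2 CPM on day 3 and at 39.8, 96.2 and 690 CPM on day 10. The groups overlapped, since day 10 replicate 1 lay below day 3 replicate 1, and the last library exceeded every other. The fitted change was 2.87 ± 1.00 (edgeR adjusted p 0.396), and 0.84 ± 0.87 without day 10 replicate 3. Leaving out day 10 replicate 1 was the only one of the 18 alternatives in which a member passed the threshold: Psme2 then had a log2 fold change of 3.38 and an edgeR adjusted p of 0.0299. Over the alternatives the adjusted p of Psme2 ran from 0.0299 to 1.

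The chains of PA28 act as one complex, so their ratio was read in each library. Psme1 exceeded Psme2 by 2.10, 4.32 and 3.11 times on day 3 and by 5.22 and 2.06 times in day 10 replicates 1 and 2 (ratios of CPM, not corrected for length). In day 10 replicate 3 the ratio was 0.0113, since Psme1 had 29 counts and Psme2 had 2567. The ratio overlapped between the days outside that library. Psme2b, an intronless copy of Psme2, followed it with 54.0, 53.9 and 29.0 CPM on day 3 and 40.7, 124 and 445 CPM on day 10 (2.15 ± 0.96, edgeR adjusted p 0.684). The change of Psme2b was 0.83 ± 0.79 without the sparse library. Of the 100-base stretches of Psme2, 18.4% also occur in other annotated genes, so reads of Psme2 and Psme2b could be assigned to either, and both values are uncertain.

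Psme1 and Psme2 lie close together on chromosome 14, at chr14:55578123-55581529 on the plus strand and chr14:55587441-55591113 on the minus strand (GRCm38). Sequences before their RefSeq starts are shown because these genes make up 1 complex and yet parted in the sparse library. The RefSeq stretches (GRCm38.p6) are chr14:55578249-55578359 (plus strand) for Psme1 and chr14:55591114-55591351 (minus strand) for Psme2, each free of annotated exons and in lower case because they hold none of the motifs searched. The Psme1 stretch lies inside the GENCODE span just given, which begins before the RefSeq start:
Psme1: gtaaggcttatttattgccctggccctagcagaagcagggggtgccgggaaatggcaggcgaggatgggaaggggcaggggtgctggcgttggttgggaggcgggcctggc
Psme2: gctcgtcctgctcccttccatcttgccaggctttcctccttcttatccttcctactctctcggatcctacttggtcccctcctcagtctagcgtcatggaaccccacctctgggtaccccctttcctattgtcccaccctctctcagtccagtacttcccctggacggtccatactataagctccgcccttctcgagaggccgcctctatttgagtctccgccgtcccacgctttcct

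The remaining activators did not part the days. Psme3, which encodes the nuclear PA28 gamma, was at 22.8, 64.2 and 97.1 CPM on day 3 and at 69.1, 39.3 and 81.0 CPM on day 10 (0.04 ± 1.03). Psme4, the large activator PA200, was at 105, 96.4 and 78.4 CPM on day 3 and at 55.0, 100.2 and 367 CPM on day 10. Psme4 was even on day 3, and its change of 0.90 ± 0.90 became -0.29 ± 0.69 without the sparse library.

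Psmf1 encodes PI31, which inhibits the core in vitro. It was at 11.3, 3.13 and 8.93 CPM on day 3 and at 20.3, 51.1 and 5.92 CPM on day 10. Day 10 replicates 1 and 2 again lay above every day 3 library, with the sparse library among the day 3 values. The change was 1.73 ± 1.55 and, without the sparse library, 2.18 ± 1.27 (edgeR adjusted p 0.999 and 0.973). It was positive in all 18 alternatives.

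Markers of some other cell types were also high in the libraries in which Psme1 and Psmf1 were high. No gene of any marker list was called by edgeR, but few of these markers passed the filter and were tested. Tested were 2 oligodendrocyte, 1 progenitor, 3 endothelial, 2 astrocyte and 1 border macrophage markers. With 0 genes tested, the neuron, neutrophil, pericyte and T cell lists could give no call. The oligodendrocyte markers (6 of 8 in the table, with Cldn11 at 0) summed to 26.6 to 34.3 CPM on day 3 and to 114, 72.2 and 15.6 CPM on day 10. Progenitor markers summed to 0.996 to 12.97 CPM on day 3 and to 104, 33.7 and 1.88 CPM on day 10, with 5 of 6, among them Pdgfra, Olig1 and Olig2, at 0 in every library. Endothelial markers (Cldn5 and Tek at 0) summed to 4.13 to 25.7 CPM on day 3 and to 67.4, 94.6 and 16.9 CPM on day 10. Border macrophage markers (4 of 6 in the table) summed to 23.4 to 93.4 CPM on day 3 and to 5.49 to 6.19 CPM on day 10. Neuron markers summed to 0.295 to 2.13 CPM on day 3 and to 10.9, 0.431 and 0 CPM on day 10. Some other lists had their highest sums on day 3. Astrocyte markers summed to 31.8, 129 and 106 CPM on day 3 and to 67.6, 61.5 and 41.4 CPM on day 10. The highest sums of the B cell, monocyte and neutrophil lists were 30.4, 18.2 and 78.8 CPM, each in a day 3 library. The part of these cells in the levels of Psme1, Psmf1 and Psmd6 was not tested.

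**Figure D4:**
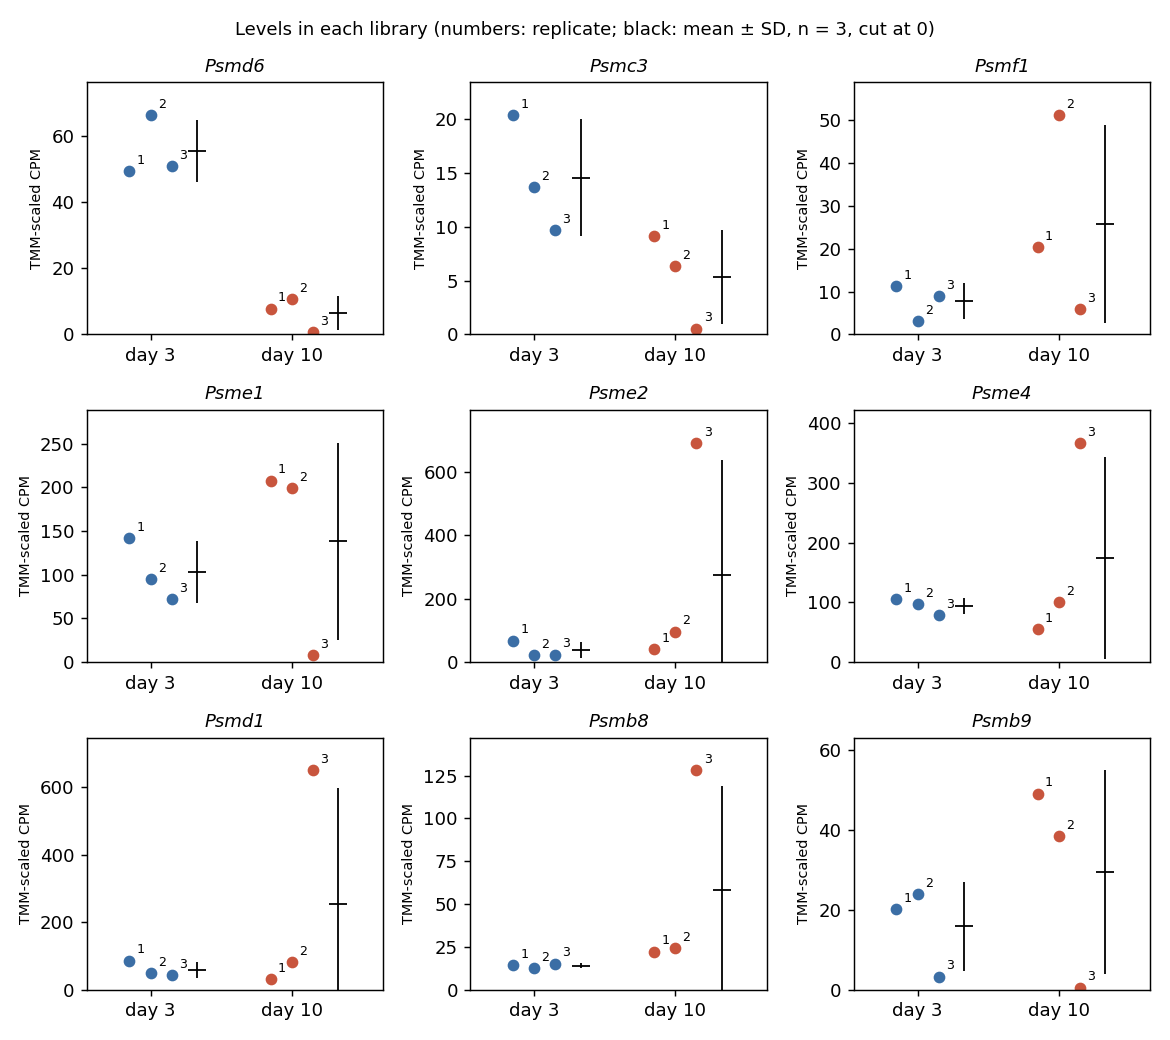
TMM-scaled CPM of 9 proteasome and immunoproteasome genes in each library (points, numbered by replicate) with the mean ± SD of each group (black, n = 3, cut at 0). Psmd6 and Psmc3 are lower in all 3 day 10 libraries, Psmb8 is higher in all 3, and the highest values of Psme2, Psme4 and Psmd1 come from replicate 3 of day 10. Such separation of the groups held for 4.97% of all tested genes downward and 3.47% upward.

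The panels for single genes show where the SDs of day 10 are wide: for Psme2, Psme4 and Psmd1 the third point lies far above the rest, and for Psme1 and Psmb9 far below the other day 10 points.

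The immunoproteasome genes, a list outside the 37 members, were all 3 fitted upward and none was called. Of all tested genes, 49.9% were fitted upward. Psmb8, which replaces Psmb5, was at 14.2, 12.5 and 15.2 CPM on day 3 and at 22.2, 24.2 and 128 CPM on day 10. All 3 day 10 libraries lay above day 3 (2.05 ± 1.25, edgeR adjusted p 0.962), as for 3.47% of all tested genes. Without the sparse library the change was 0.70 ± 1.27. Its exons overlap those of Gm20496 on the opposite strand over 498 bases. Psma4, Psma5, Psmb7, Psmb9, Psmc3, Psmd1, Psmd3, Psmd13 and Psme1 also share exon bases with a gene on the opposite strand, and Psmb5 and Psmd1 with one on the same strand, over 14 to 553 bases. Without a stated strand setting the counts of all these genes are uncertain. Psmb9, which replaces Psmb6, was at 20.2, 24.1 and 3.26 CPM on day 3 and at 49.2, 38.5 and 0.538 CPM on day 10, and the groups overlapped only through the sparse library. Psmb10, which replaces Psmb7, was at 3.44, 3.99 and 0.121 CPM on day 3 and at 17.9, 2.48 and 0.807 CPM on day 10.

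Their summed level was 37.9, 40.6 and 18.6 CPM on day 3 and 89.3, 65.2 and 129 CPM on day 10. These sums did not overlap, but in the sparse library 128 CPM came from Psmb8, and Psmb9 and Psmb10 each overlapped between the days. Relative to the summed Psmb5, Psmb6 and Psmb7, this gave ratios of 2.08, 2.02 and 0.672 on day 3 and of 2.80 and 4.07 in day 10 replicates 1 and 2. In the sparse library the standard subunits had 3 counts in all, and no ratio is given. These are ratios of CPM, not corrected for length, and no test was made on them.

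No gene of the other pathway lists was called by edgeR either, and before adjustment only Adrm1 had a p under 0.05. Pomp, the chaperone that builds the core, was even at 99.6, 137 and 120 CPM on day 3 and 97.7, 120 and 198 CPM on day 10 (0.22 ± 0.86). Among 3 tested assembly genes of 7 in the table, 2 changes were positive and 1 negative, and Psmd9, a base chaperone, had the smallest p (-0.51 ± 1.88). Psmd9 was at 6.58, 21.5 and 0.121 CPM on day 3 and at 16.3, 3.12 and 0.269 CPM on day 10. Nfe2l1, the transcription factor that raises proteasome gene expression when the enzyme is blocked, was at 356, 39.7 and 116 CPM on day 3 and at 245, 44.8 and 133 CPM on day 10. Its values spread more within groups than between them (-0.28 ± 0.90).

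Of the 8 genes on the list for proteasome gene control, 5 were positive, and Maff had the smallest p (-3.04 ± 2.06). Maff was at 3.05, 0.142 and 32.8 CPM on day 3 and at 2.83, 1.18 and 0.269 CPM on day 10. Its fitted fall rests on day 3 replicate 3, and the groups overlapped. Of 9 receptors and deubiquitinases, 3 were positive. Adrm1, a ubiquitin receptor of the cap, was at 10.3, 6.40 and 3.98 CPM on day 3 and at 6.07, 0.969 and 175 CPM on day 10, so its change of 3.13 ± 1.47 (edgeR adjusted p 0.745) became -1.01 ± 1.93 without the sparse library. Of 5 tested ubiquitin genes 4 were positive, with the smallest p in Rps27a (-1.04 ± 1.16). Rps27a was at 82.5, 42.4 and 70.3 CPM on day 3 and at 20.5, 71.0 and 2.96 CPM on day 10. Of 5 unfoldase genes 3 were positive, with the smallest p in Nploc4 (-1.37 ± 1.30). Nploc4 was at 102, 23.2 and 11.6 CPM on day 3 and at 38.1, 11.1 and 3.77 CPM on day 10.

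The upstream 250 bases of the members were searched for letters of known control elements, on both strands, in 34 RefSeq windows of 31 members. TGACNNNGC, the core of the antioxidant response element that Nfe2l1 and its relatives bind, was found in the windows of 4 members (11.8% of member windows, against 10.2% of 32851 windows of all genes). CCAAT was found in those of 11 members (32.4% against 33.8%). The interferon-stimulated response element, read here as a pair of GAAA words with a pair of any bases between them, was found for Psmb3 and Psmd4 (5.88% against 2.98%), and TTCNNNGAA, the interferon-gamma activated site, for no member (7.02% of all windows). The member matches did not overlap each other. The matches other than CCAAT are shown because these elements are known routes of proteasome gene induction, with the element in capitals and its flanks in lower case:
Psmb5: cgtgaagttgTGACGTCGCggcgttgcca
Psmb6: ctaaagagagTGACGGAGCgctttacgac
Psmc6: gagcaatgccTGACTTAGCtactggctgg
Psmd12: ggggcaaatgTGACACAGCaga
Psmb3: atggaaagcgGAAAGTGAAAagtcactgtg
Psmd4: aggcgccacaGAAATGGAAAggttggttat

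The positions (GRCm38.p6) are chr14:54618024-54618052 (minus strand) for Psmb5, chr11:70525338-70525366 (plus) for Psmb6, chr14:45329587-45329615 (minus) for Psmc6, and chr11:107479278-107479299 (minus) for Psmd12. Those of the interferon elements are chr11:97703261-97703290 (minus) for Psmb3 and chr3:95042675-95042704 (plus) for Psmd4. The 4 members with the antioxidant letters had fitted changes of -0.69 (Psmb5), -0.13 (Psmb6), -0.68 (Psmc6) and -1.22 (Psmd12), and none was called. A match is a description of letters and not a bound site.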

How the data were processed

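RNA-seq of sorted microglia was analysed from the deposited tables. The build was GRCm38 and the aligner named is STAR 2.5.2a, per the submitters' processing notes, which also list limma 3.30.8 and edgeR 3.16.5 under R 3.3.2. How reads were counted, with which strand setting and annotation, is not stated in those notes or the labels. The deposited counts are raw counts per gene. The deposited FPKM values are the authors' and carry no replicate number in their columns, so they are given by group and their average columns were not used. The authors' table of log2 fold changes and p-values (day 3 minus day 10, signs turned here) was used only where named.

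The counts were tested with edgeR 4.0.16 (glmQLFit and glmQLFTest; R 4.3.3) with TMM scaling, filterByExpr at a minimum count of 10 and group as the only factor. Adjusted p is Benjamini-Hochberg over all genes tested, with a threshold of 0.05, and the SE is the fold change divided by the root of F. Alternatives used DESeq2 1.42.0 and limma 3.58.1. Counts per library ran from 5890081 to 9212197; floors of 3 counts cover counting error only, since the protocol describes no molecular identifiers. The script was tested on simulated counts. GENCODE positions and RefSeq promoter windows (31 of 37 members) were used.

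The members and lists were chosen with earlier results of these data known. Genes given by library are Psmb5, Psmb6, Psmb7, the activators, Psmf1, and per role the member of smallest p and of smallest change; of the other lists, the immunoproteasome genes, Nfe2l1, Pomp and the gene of smallest p. Psmc3, Psmd7 and Psmd14 were added after their values were seen. Psma8 and Psmb11 were not tested. Marker lists for neurons, pericytes, monocytes, neutrophils, lymphocytes and erythroid cells summed to at most 78.8 CPM in any library, and astrocyte markers to 129 CPM.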

Additional observations from a re-analysis of the deposited data

How the results depend on the processing

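Members called stayed at 0 under every alternative except leaving out LPC day 10 replicate 1, with a leave-one-out range of 0 to 1. The number of all genes called was 12 and moved to 0 with RLE scaling, library-size scaling, the replicate block and each of the 3 FPKM fits, 118 with no filter, 21 with 1 CPM in 3 libraries, 63 with DESeq2, 1 with voom and 3 with voom quality weights. Leaving out 1 library gave 1 (day 10 replicate 3) to 211 (day 10 replicate 1), with 173 without day 10 replicate 2 and 37, 43 and 26 without day 3 replicates 1, 2 and 3. The causes were not tested. The median log2 fold change of the members ran from -0.37 to 0.04 and was above 0 with library-size scaling (0.02) and voom quality weights (0.04). The median of all genes shifted by 0.13 with RLE scaling and by 0.22 with no filter. Replicate numbers did not pair the libraries (same-number correlations 0.073, -0.035 and 0.007), and the replicate block left 0 members called, with a median of -0.26. Each group has 3 libraries, and 46.5% of tested genes had 10 counts or fewer in day 10 replicate 3.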
